A study of Mus musculus with 10 samples.

Results

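Complement is a system of secreted and membrane proteins that tags microbes and damaged cells and can lyse them. Its classical, lectin and alternative pathways meet at cleavage of C3, the fragment of C3 then helps to cleave C5, and C5 starts the membrane attack complex, while membrane proteins such as CD55 and CD59 protect a cell from its own complement. The liver makes most of the circulating components, and alveolar type II (AT2) cells, which make surfactant and line the lung alveolus with type I cells, are among the extrahepatic sources. The genes described here are 8 complement components and regulators, C3, Hc, C4b, Cfb, Cfi, Cd55, Cd59a and Serping1, found by symbol among the 16154 genes of the deposited table. They were chosen by symbol with the knockout against wild type values of these same libraries already known. Differences between the genotypes are therefore given below for these 8 genes as a description, without a test.

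Messenger RNA was measured by sequencing of polyA RNA in AT2 cells sorted from lungs of C57BL/6 mice aged 8 to 10 weeks. There were 5 libraries labelled wild type (replicates 2 to 6) and 5 labelled HOIL-1L -/- (replicates 1 to 5, called knockout here). HOIL-1L, encoded by Rbck1, is a subunit of the ligase that builds linear ubiquitin chains. The design text describes the knockout instead as CreSPC/HOIL-1Lfl/fl, a floxed allele with Cre named for surfactant protein C, which AT2 cells make; which of these descriptions holds for a library was not settled here, and the gene-level values count every exon of Rbck1. Each title carries a different number after the letter M, taken here as the mouse. These numbers form 2 runs, the first with wild type 2 and 3 and knockout 1 to 3, the second with wild type 4 to 6 and knockout 4 and 5; the labels do not call them batches.

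Values are the deposited normalized counts, divided by 1 constant, the mean column total in M, and are called per M here. The lowest values of the columns put the depth at roughly 7.69 to 13.2 M reads, at which 1 read is worth about 0.0746 to 0.127 per M. All 10 AT2 markers were present, with a summed level of 183824 to 220531 per M. Rbck1, the targeted gene, stood at 56.1 to 57.8 per M for wild type 3 to 6 and 29.8 to 38.8 in knockout 2 to 5, but at 29.7 in the library labelled wild type 2 and 59.3 in the library labelled knockout 1. These 2 libraries go against their labels, and over all 10 the difference of mean log2 Rbck1 was -0.34 (exact permutation test, two-sided, p = 0.206; the smallest possible is 0.00794). Fold changes between the genotypes are therefore given with all 10 libraries and with the other 8. By Xist and Y-linked genes 3 libraries were female (wild type 2, knockout 2 and knockout 3) and 7 male; in the first run, sex and the level of Rbck1 cannot be told apart, and the second run was all male.

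C3, Hc and Cd59a carry the contrasts described below, so the 250 bases before their RefSeq start sites (GRCm38.p6, 5′ to 3′ on the gene's strand) are shown. Capitals mark matches to any of 4 short motifs searched on both strands: GGGNNTTCC (NF-kB), TTGCNNAA (C/EBP), TTCNNNGAA (STAT) and GAAANNGAA (interferon response). No match overlaps another. The C3 window lies at chr17:57228137-57228386, minus strand, the Hc window at chr2:35061413-35061662, minus strand, and the Cd59a window at chr2:104095551-104095800, plus strand.
C3: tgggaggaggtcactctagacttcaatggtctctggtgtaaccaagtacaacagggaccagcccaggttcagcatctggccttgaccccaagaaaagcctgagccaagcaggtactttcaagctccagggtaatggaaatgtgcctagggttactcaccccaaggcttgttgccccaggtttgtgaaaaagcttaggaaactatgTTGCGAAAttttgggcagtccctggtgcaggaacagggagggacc
Hc: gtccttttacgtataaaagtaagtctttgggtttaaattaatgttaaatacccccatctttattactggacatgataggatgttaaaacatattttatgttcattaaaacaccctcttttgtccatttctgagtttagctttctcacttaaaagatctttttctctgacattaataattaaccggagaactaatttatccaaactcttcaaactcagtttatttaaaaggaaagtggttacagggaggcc
Cd59a: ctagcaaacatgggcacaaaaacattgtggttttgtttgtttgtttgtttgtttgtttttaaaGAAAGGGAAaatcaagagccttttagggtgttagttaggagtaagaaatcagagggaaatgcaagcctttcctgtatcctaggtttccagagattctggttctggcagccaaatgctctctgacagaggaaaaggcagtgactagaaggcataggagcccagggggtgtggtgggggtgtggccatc

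The C3 window holds the C/EBP letters from 45 to 38 bases before the start, and 9.55% of all 27025 promoter windows of that length hold them. The Cd59a window holds the interferon response letters in its distal part, as 7.16% of all windows do. None of the 4 motifs is in the Hc window; the NF-kB and STAT letters are in 4.88% and 7.18% of all windows. RefSeq promoters were matched for 4 of the 8 genes, the fourth being Cd55. The Cd55 window, not shown, holds the NF-kB letters on the opposite strand, from 60 to 52 bases before the start. C4b, Cfb, Cfi and Serping1 were not matched.

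The 8 genes lie on 4 chromosomes (coordinates mm10, GENCODE M21; all protein coding). Hc (34983331 to 35061438), Serping1 (84765387 to 84775444) and Cd59a (104095801 to 104115354) are on chromosome 2, as is Rbck1 (152316334 to 152332653). Cd59a is 48.2 Mb, Serping1 67.6 Mb and Hc 117 Mb from Rbck1, between gene starts. C3 (57203970 to 57228136), C4b (34728380 to 34743882) and Cfb (34856374 to 34862518) are on chromosome 17, with C4b and Cfb 0.128 Mb apart in the major histocompatibility complex. Cfi (129835884 to 129875332) is on chromosome 3 and Cd55 (130439027 to 130462744) on chromosome 1.

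AT2 cells held much RNA for the central components C5 and C3, some for the membrane regulators, and little for the other members. Per M and kb of exon, Hc, which encodes C5, averaged 750 ± 96.3 (SD over 10 libraries) and was 39th among 16034 genes with a length. C3 averaged 162 ± 52.9, a level 4.64-fold below Hc; their ranges over libraries did not overlap. The genes for the membrane regulators followed on the same per-length scale. Cd55, whose product speeds decay of the C3 convertases, stood at 11.2 ± 0.432, and Cd59a, whose product blocks assembly of the membrane attack complex, at 9.72 ± 7.32. Cd55 and Cd59a exchanged order between libraries, with Cd55 above in 7 of 10.

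**Figure D1:**
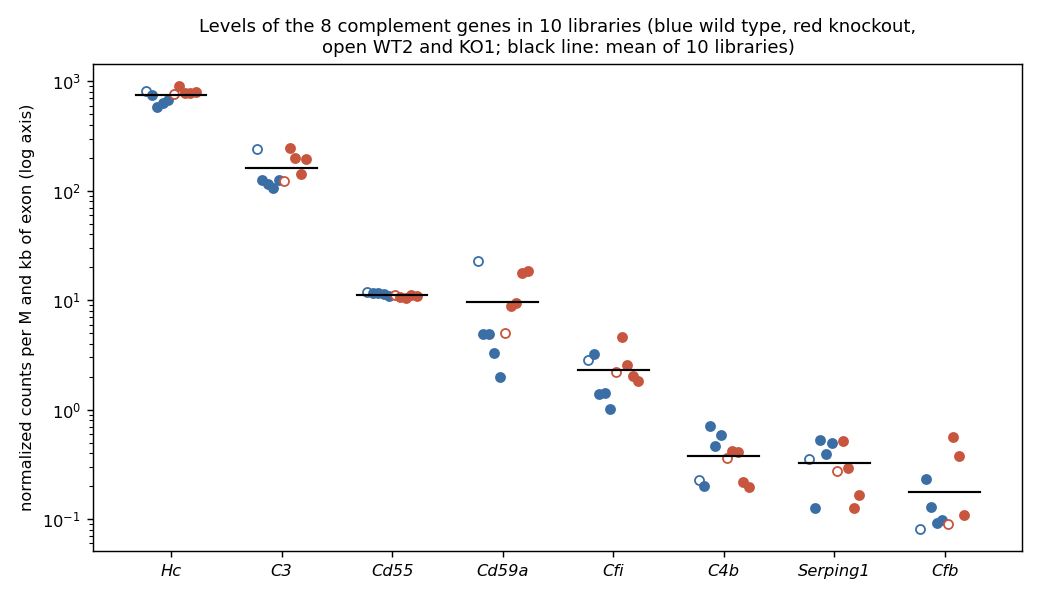
Normalized counts per M and kb of exon (log axis) of the 8 genes, ordered by mean; each point is a library, blue wild type, red knockout, open for wild type 2 and knockout 1, and the black line is the mean of 10. Hc averages 750 and C3 162, while C4b, Serping1 and Cfb lie below 1; the knockout 5 value of Cfb is 0 and cannot be drawn.

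Cfi, which encodes factor I, the protease that cuts C3b and C4b, averaged 2.31 ± 1.05 per M and kb, below Cd59a in every library although their ranges overlapped. C4b, a classical pathway component, followed at 0.380 ± 0.176, with no overlap with Cfi. Serping1, which encodes the C1 inhibitor, stood at 0.328 ± 0.156 and Cfb, which encodes factor B of the alternative pathway, at 0.178 ± 0.171. The ranges of C4b, Serping1 and Cfb overlapped each other in this order. These last 3 rested on few reads, roughly 12 to 45 in a library for C4b, 3 to 16 for Serping1 and 0 to 15 for Cfb. The filter on low values, at least 1 per M in at least 5 libraries, was passed by 6 of the 8 genes; Cfb (at least 1 in 2 libraries) and Serping1 (in 3) did not pass and have no fold change.

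How much a gene varied over the 10 libraries differed widely among the members. Cd55 varied least, between 51.2 and 57.3 per M, a coefficient of variation of 3.86%. Hc followed at 12.8% and C3 at 32.7%. Cd59a had the widest relative span of the 6, with its highest library 11.5-fold above its lowest and a coefficient of variation of 75.3%. The corresponding spans were 2.30-fold for C3, 1.57-fold for Hc and 1.12-fold for Cd55.

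**Figure D2:**
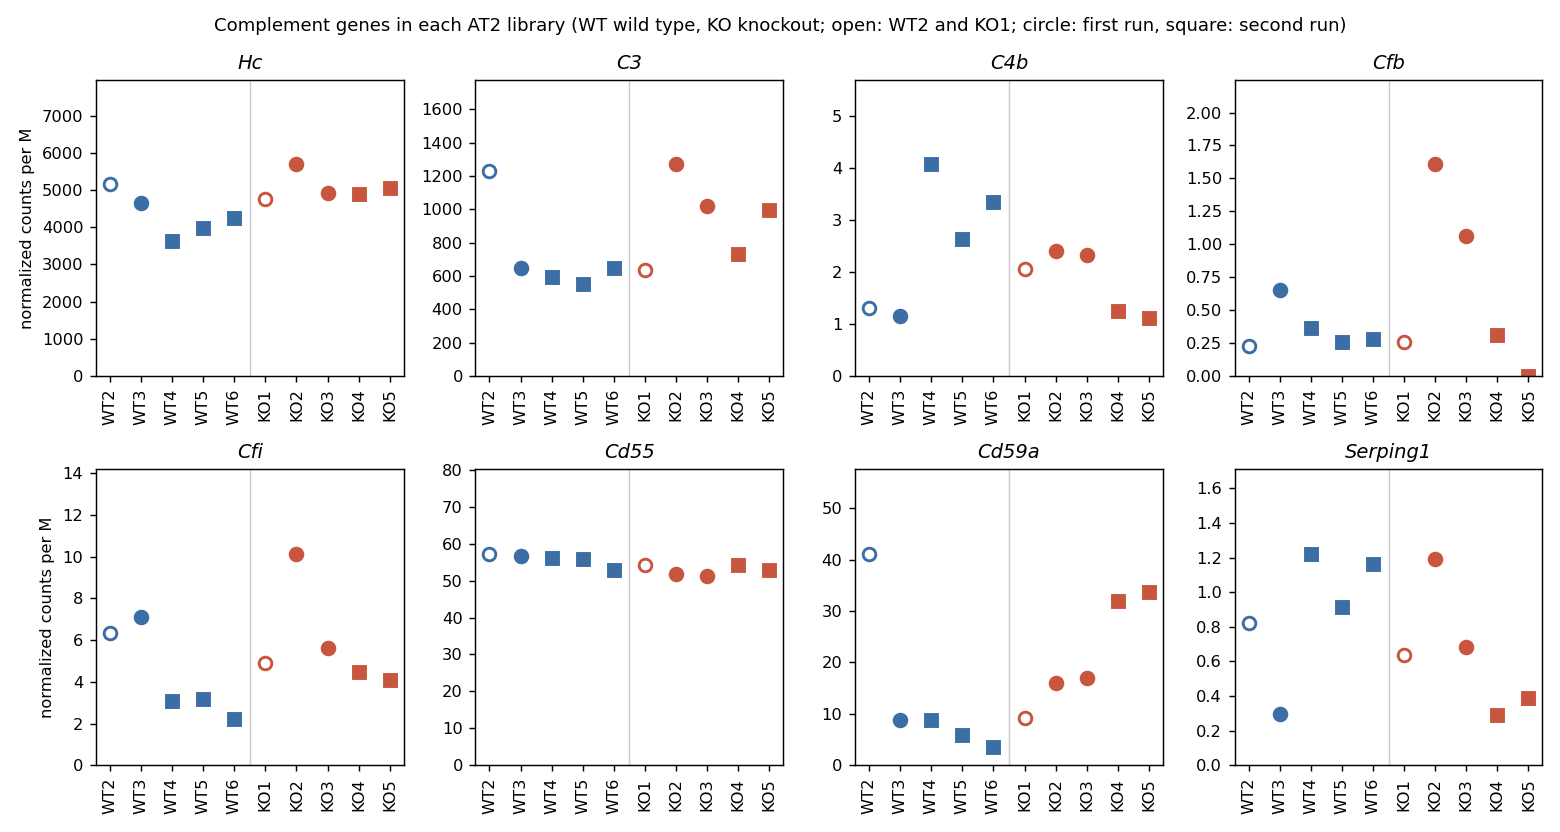
Normalized counts per M of each gene in each library, wild type (WT, blue) and knockout (KO, red), open for WT2 and KO1, circles for the first run and squares for the second; axes start at 0 and differ between panels. Cd59a reads 41.1 in WT2 and 9.15 in KO1, against 3.58 to 8.86 in WT3 to WT6 and 15.9 to 33.8 in KO2 to KO5, while Cd55 is nearly level.

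C3, the component where all pathways meet, stood higher in the knockout libraries once the doubted pair was set aside. It read 645, 593, 551 and 647 per M in wild type 3, 4, 5 and 6. Knockout 2, 3, 4 and 5 had 1270, 1020, 732 and 998. The library labelled wild type 2 read 1228 and the library labelled knockout 1 read 633. The 8 libraries thus did not overlap, and each doubted library lay within the range of the other genotype. Means were 609 ± 46.1 and 1005 ± 220 (SD, n = 4 each), a log2 fold change of 0.70 ± 0.12 (SE, 95% interval 0.44 to 0.96) or 1.62-fold. With all 10 libraries as labelled the log2 fold change was 0.37 (95% interval -0.05 to 0.79), from means of 733 ± 280 and 930 ± 253 (SD, n = 5 each), and the groups overlapped.

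Sex and C3 moved together in these libraries. The 3 females read 1020 to 1270 per M and the 7 males 551 to 998. How many of all genes split the sexes in this way was not counted. Within the second run, where all libraries were male, knockout 4 and 5 (732 and 998) lay above wild type 4 to 6 (551 to 647), with a log2 fold change of 0.52 (95% interval 0.26 to 0.78). In the first run as labelled, which holds both doubted libraries, it was 0.07 (95% interval -0.54 to 0.69). No wild type library among the 8 was female, so sex could not be adjusted for there apart from knockout 2 and 3.

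Hc encodes C5, the source of the attractant C5a and of the first piece of the membrane attack complex. Among the 8 libraries Hc too stood higher in knockout, with a smaller span than C3. In wild type 3, 4, 5 and 6 it read 4657, 3636, 3988 and 4239 per M, and in knockout 2, 3, 4 and 5 it read 5693, 4933, 4888 and 5058. The libraries labelled wild type 2 and knockout 1 read 5162 and 4760. Unlike for C3, knockout 1 lay outside the range of wild type 3 to 6, between it and that of knockout 2 to 5. Among the 8 libraries the lowest knockout stood just above the highest wild type. Means were 4130 ± 430 and 5143 ± 374 (SD, n = 4 each), a log2 fold change of 0.32 ± 0.10 (SE, 95% interval 0.11 to 0.53) or 1.25-fold. With all 10 it was 0.23 (95% interval 0.01 to 0.45), and the groups overlapped. It was 0.33 in the second run and 0.06 in the first run as labelled.

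Within a library the balance of the pair can be read without regard to depth. Per kb, Hc exceeded C3 by 5.04- to 5.94-fold in wild type 3 to 6 and by 3.68- to 5.48-fold in knockout 2 to 5, so that these ranges overlapped. The lowest ratio of all, 3.45, was that of the library labelled wild type 2, and the highest, 6.18, that of the library labelled knockout 1.

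Cd59a, the membrane inhibitor of the attack complex, had the largest difference of the 6 genes with a fold change. In wild type 3, 4, 5 and 6 it read 8.86, 8.83, 5.91 and 3.58 per M. In knockout 2, 3, 4 and 5 it read 15.9, 16.9, 31.9 and 33.8. The library labelled wild type 2 was the highest of all at 41.1, and the library labelled knockout 1 lay near the wild type range at 9.15. Means in the 8 libraries were 6.80 ± 2.55 and 24.6 ± 9.50 (SD, n = 4 each), a log2 fold change of 1.78 ± 0.27 (SE, 95% interval 1.22 to 2.34) or 3.44-fold. With all 10 as labelled it was 1.003 (95% interval 0.02 to 1.98).

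The knockout libraries fell into separate levels by run, 15.9 and 16.9 in the first and 31.9 and 33.8 in the second. The second run alone gave a log2 fold change of 2.41 (95% interval 1.88 to 2.95), and the first run as labelled, which holds both doubted libraries, -0.49 (95% interval -1.53 to 0.55). Females read 15.9 to 41.1 and males 3.58 to 33.8, and the female knockout libraries are those of the first run among the 8. The neighbouring copy Cd59b, 0.0260 Mb away, stood at 0.114 to 1.10 per M; how reads shared by the copies were counted is not given in the labels. A window of 2 Mb on each side of Cd59a was chosen after its values were seen. In it 0 of 24 other tested genes were called in the 8 libraries, where 0.402% of all 12946 genes were (limma, adjusted p of 0.05). Their log2 fold changes ran from -0.48 to 0.29. The same windows around Hc and C3 had 0 of 29 and 0 of 49 called. At that share hardly any call could occur among so few genes, so nothing about the region is read from these counts.

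**Figure D3:**
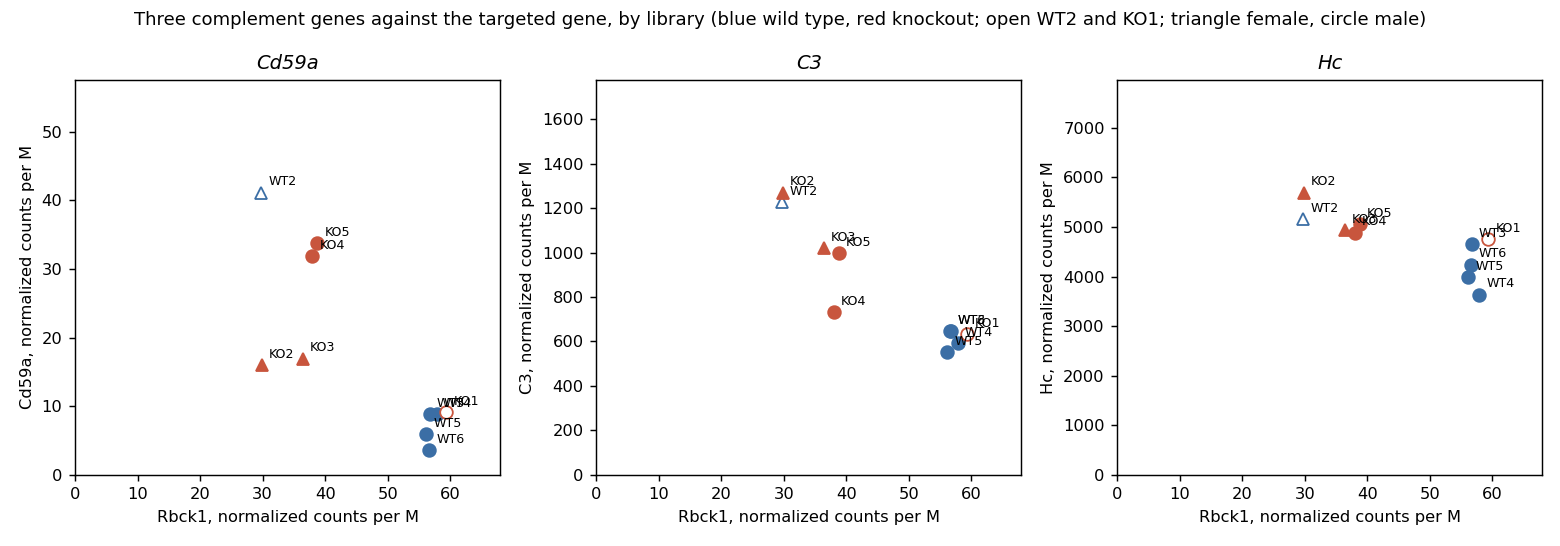
Normalized counts per M of Cd59a, C3 and Hc (vertical) against Rbck1 (horizontal) in each library, blue labelled wild type, red labelled knockout, open for WT2 and KO1, triangles female and circles male. WT2, with Rbck1 at 29.7, has Cd59a at 41.1 and C3 at 1228, and KO1, with Rbck1 at 59.3, has Cd59a at 9.15 and C3 at 633.

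Of the 6 genes past the filter, C3, Hc and Cd59a did not overlap between the genotypes in the 8 libraries, each higher in knockout. Of all 12946 genes past the filter, 3.85% did so in that direction. Among the other complement genes described below, C1ra, Mbl1 and Susd4 did so too. With all 10 libraries as labelled, 0 of the 6 genes had groups that did not overlap, against 1.59% of all genes past the filter in either direction. Both shares stand beside counts over genes that were chosen with this contrast known, so nothing is read from them.

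**Figure D4:**
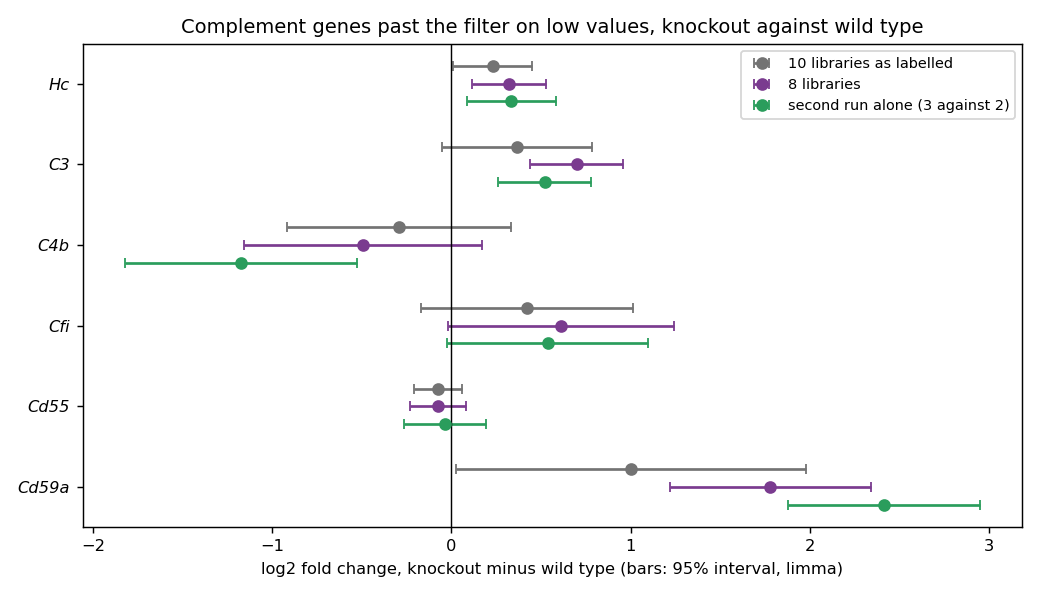
Log2 fold change, knockout minus wild type, of the 6 genes past the filter on low values, with 95% intervals from limma, in 10 libraries as labelled (grey), in 8 libraries (purple) and in the second run alone (green). Cd59a reads 1.003, 1.78 and 2.41 in these settings and Cd55 stays near 0.

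Cd55, the other membrane regulator with a fold change, was nearly level. It read 53.0 to 56.6 per M in wild type 3 to 6, 51.2 to 54.2 in knockout 2 to 5, 57.3 in wild type 2 and 54.3 in knockout 1. The groups overlapped, and the log2 fold change in the 8 libraries was -0.08 (95% interval -0.23 to 0.08), and with all 10 it was -0.08 (95% interval -0.21 to 0.06). Cd55b, a near copy of Cd55, was not analysed here.

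Cfi, the gene for the protease that inactivates C3b, read 7.13, 3.07, 3.16 and 2.24 per M in wild type 3, 4, 5 and 6. Knockout 2, 3, 4 and 5 had 10.1, 5.63, 4.49 and 4.07. Wild type 2 read 6.36 and knockout 1 read 4.91, so that the genotypes overlapped while all libraries of the first run lay above all those of the second. How many of all genes separate the runs in this way was not counted. The 8-library log2 fold change was 0.61 ± 0.30 (SE, 95% interval -0.02 to 1.24) and 0.37 ± 0.21 with the run as a covariate. It ranged from 0.35 without knockout 2 to 0.92 without wild type 3, and with all 10 libraries it was 0.42 (95% interval -0.17 to 1.02).

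C4b, the classical pathway gene, was low and had no constant direction. It read 1.15, 4.06, 2.63 and 3.34 per M in wild type 3, 4, 5 and 6. Knockout 2, 3, 4 and 5 had 2.39, 2.32, 1.25 and 1.12, with 1.30 in wild type 2 and 2.06 in knockout 1. In the second run the log2 difference was -1.17 (95% interval -1.82 to -0.53), whereas in the first run as labelled it was 0.68 (95% interval 0.02 to 1.33). Over 8 libraries it was -0.49 (95% interval -1.16 to 0.17) and over all 10 it was -0.29 (95% interval -0.91 to 0.33). C4a, its near-identical copy, was recorded at 0 to 0.247 per M, and reads shared by the copies make both levels uncertain.

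The 2 genes below the filter, Cfb and Serping1, were described by their values alone. Cfb, for factor B, read 1.61 and 1.06 per M in knockout 2 and 3, 0.310 in knockout 4, 0 in knockout 5, 0.254 in knockout 1 and 0.231 to 0.653 in the wild type libraries. Its highest values were thus those of 2 female knockout libraries, while the female labelled wild type 2 had 0.231. Serping1, for the inhibitor of the C1 proteases, read 0.295 to 1.22 in wild type and 0.293 to 1.19 in knockout, and the groups overlapped over nearly their whole range. In the second run wild type 4, 5 and 6 read 1.22, 0.916 and 1.16, above knockout 4 and 5 at 0.293 and 0.388. In the first run wild type 2 and 3 read 0.824 and 0.295, and knockout 1, 2 and 3 read 0.638, 1.19 and 0.685. These values rest on roughly 3 to 16 reads in a library.

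Differences between the runs were not used to choose the genes and were tested over all 12946 genes, with genotype but not sex in the model. All females and both doubted libraries were in the first run, so run and sex cannot be fully told apart. For the 6 genes past the filter, 0 were called, where 0.626% of all genes were (limma, adjusted p of 0.05). Cfi came closest, at 6.84 ± 2.03 per M in the first run and 3.41 ± 0.890 in the second (SD, n = 5 each), a log2 difference of -0.85 ± 0.20 (SE, limma adjusted p = 0.0611). It was lower in the second run in each of the 17 alternative fits that kept it. It passed in 1 of them, without knockout 1 (limma adjusted p = 0.0210). Over the alternatives the limma adjusted p was 0.0210 to 0.267, the highest with sex as a covariate (log2 difference -0.73). For C3 the log2 difference was -0.36 ± 0.18 (SE, limma adjusted p = 0.357), and it was 0.13 with sex as a covariate. For Hc it was -0.18 ± 0.10 (SE, limma adjusted p = 0.395). Cd55, C4b and Cd59a had limma adjusted p of 0.959, 0.770 and 0.866.

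The rest of the complement system was followed through a list of 51 other genes, of which 31 were in the table and 14 passed the filter; the other 20 were not analysed here. Between the genotypes 0 of these 14 were called with 10 libraries, where 0% of all genes were (1227 of 12946 at an unadjusted p of 0.05), and 0 with 8 libraries, where 0.402% were. At an unadjusted p of 0.05 there were 1 and 4, and over all genes in the 8 libraries 1695 of 12946. Their median log2 fold change was 0.07 in the 8 libraries, beside 0.00 for all genes.

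The classical pathway had C1ra, a protease of the C1 complex, as its most abundant gene with a test. Means of 2.96 ± 0.363 (wild type) and 6.98 ± 3.09 per M (knockout; SD, n = 4 each) gave a log2 fold change of 1.03 ± 0.24 (SE, limma adjusted p = 0.0738) in the 8 libraries. With all 10 it was 0.44 ± 0.36 (SE, limma adjusted p = 0.715). The library labelled wild type 2 read 8.25 and knockout 1 read 1.80. The females (7.32 to 11.2) lay above all the males (1.80 to 5.30), a split not counted over all genes. C2, which supplies the protease of the classical C3 convertase, had a log2 fold change of 0.15 ± 0.34 (SE) in 8 and 0.18 ± 0.30 in 10 libraries. C1qc, which encodes a chain of C1q and is a macrophage product, was recorded at 0 to 0.904 per M and is named after its values were seen.

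Of the lectin pathway, Masp2, the protease that cuts C4 and C2, had a log2 fold change of -0.06 ± 0.23 (SE) in 8 and -0.07 ± 0.21 in 10 libraries. Mbl1, a mannose-binding lectin, had 0.52 ± 0.21 (SE) in 8 and 0.47 ± 0.23 in 10. Mbl1 read 1.70 to 2.76 per M in the 4 wild type and 3.04 to 4.09 in the 4 knockout libraries (limma adjusted p = 0.301). Wild type 2 was the lowest of all at 1.42, and knockout 1 read 1.80. Cfp, for properdin, which stabilizes the alternative convertase, did not pass the filter (0.180 to 1.44 per M). Among terminal components C6, which binds C5b, averaged 175 ± 39.2 (wild type) and 155 ± 10.7 per M (knockout; SD, n = 4 each), with a log2 fold change of -0.14 ± 0.13 (SE), and -0.20 ± 0.12 in 10 libraries. C8g, for the gamma chain of C8, stayed at 0.348 to 1.86 per M.

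Clu, for clusterin, a fluid-phase inhibitor of the attack complex and a chaperone, behaved unevenly. It read 164 to 195 per M in wild type 3 to 6. Knockout 2, 3, 4 and 5 had 415, 288, 140 and 228, with 461 in wild type 2 and 192 in knockout 1. The females (288 to 461) all lay above the males (140 to 228), a split not counted over all genes. The log2 fold change in 8 libraries was 0.45 ± 0.21 (SE, limma adjusted p = 0.376). With all 10 it was 0.11 ± 0.27 (SE, limma adjusted p = 0.918). Without knockout 4, Clu and C1ra both passed, as higher, with log2 fold changes of 0.72 and 1.23. Cpn1, for the catalytic chain of carboxypeptidase N, which trims C3a and C5a, had 0.09 ± 0.11 (SE) in 8 and 0.13 ± 0.10 in 10 libraries.

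Of the other membrane regulators, Cr1l, which encodes Crry, the main rodent C3 convertase inhibitor on cell surfaces, read 41.4 to 54.9 per M over all libraries and had a log2 fold change of -0.11 ± 0.09 (SE) in 8 and -0.10 ± 0.09 in 10. Susd4, whose product also restrains complement activation, stood at 32.9 ± 2.07 and 40.1 ± 4.33 (SD, n = 4 each), with 0.28 ± 0.09 (SE, limma adjusted p = 0.227), and 0.21 ± 0.09 in 10 libraries. None of these regulators of surface complement had a difference as large as that of Cd59a in the same libraries. Cd59a was chosen with this contrast known, so this is a comparison of sizes and not a test.

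Between the runs, 2 of the 14 other genes were called, Itgb2 and Itgax, both lower in the second run, where 0.309% of all genes were called lower. They encode the beta 2 chain and the alpha X chain of complement receptor 4, an integrin of myeloid cells. Itgb2 read 2.92 to 4.05 per M in the first run and 0.0750 to 0.647 in the second, a log2 difference of -2.27 ± 0.23 (SE, limma adjusted p = 0.000102). Itgax read 1.29 to 2.68 and 0 to 0.365, with -2.14 ± 0.28 (SE, limma adjusted p = 0.000891). The runs did not overlap for either gene, and the share of all genes that separate the runs was not computed. Both genes reached 1 per M in 5 libraries, those of the first run. They thus passed the filter and were tested only through the run where they are high. Without the filter both were also called (limma adjusted p = 0.00243 for Itgb2 and 0.00727 for Itgax). With sex as a covariate both were called too (limma adjusted p = 0.00263 for Itgb2 and 0.0242 for Itgax). A macrophage and monocyte list moved with them in part. Mrc1, a macrophage receptor, read 2.16 to 4.37 per M in the first run and 0 to 0.961 in the second (log2 difference -2.04, limma adjusted p = 0.00562). Mrc1 too passed the filter only through the first run. It was the only called member of 5 tested, and the summed level of the 9 genes in the table was 101 to 153 and 85.2 to 124. Marco was at 0 in 4 libraries, Adgre1 in 3, Fcgr3 in 3 and Siglecf in 2, all of the second run. Csf1r went the other way, with a log2 difference of 0.20. Of the 5 ciliated genes tested, 4 had run differences above 0 and 2 were called, both higher in the second run. These were Foxj1 (log2 difference 0.61, limma adjusted p = 0.0169) and Ccdc153 (0.68, limma adjusted p = 0.0343). In the AT2, fibroblast, mesothelial, endothelial and club lists 0 were called between the runs. The part of macrophages, monocytes or ciliated cells in the run difference was not tested.

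**Figure D5:**
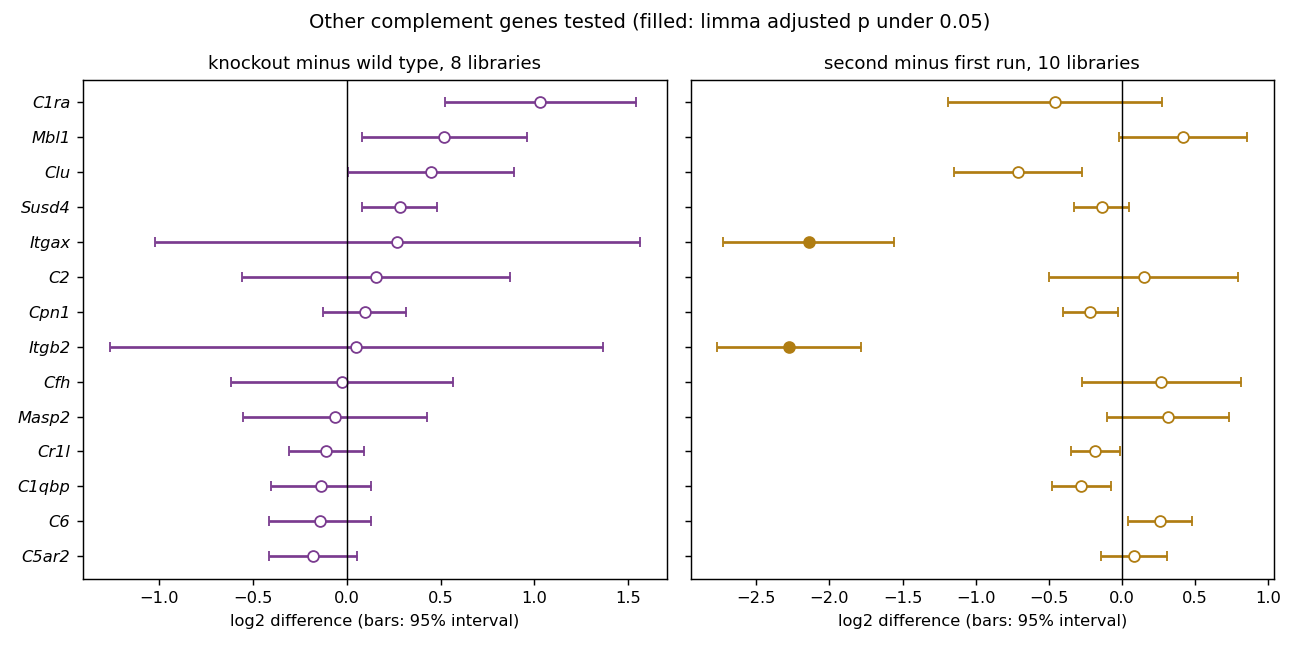
Log2 differences with 95% intervals of the 14 other complement genes tested, knockout minus wild type in 8 libraries (left) and second minus first run in 10 libraries (right); filled points have a limma adjusted p under 0.05. No point is filled on the left, and Itgb2 and Itgax are filled on the right.

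Markers of other cells that can make complement were read beside the genotype values. In these sorted bulk samples a change in the number of cells of a type and a change of RNA per cell cannot be told apart. Macrophage and monocyte genes summed to 101 to 124 per M in the 4 wild type and 85.2 to 153 in the 4 knockout libraries, and 0 of 5 were called. Among them Cd68, of the lysosomes of macrophages, read 3.54 to 6.28 and 7.64 to 11.6 without overlap (limma adjusted p = 0.0842), with 10.0 in wild type 2 and 4.76 in knockout 1. Of all genes, 3.85% were higher in knockout without overlap. Csf1r, Mpeg1, Mrc1 and Cd14 of the same list had log2 fold changes of 0.02, 0.12, 0.30 and -0.21. Fibroblast genes summed to 5.75 to 10.7 and 1.39 to 6.60, with 0 of 4 called, and Lum and Pdgfra at or near 0. Club cell genes summed to 5030 to 9384 and 4975 to 9321, with 0 of 5 called. Of 5 mesothelial genes the only tested one, Msln, was called higher in knockout (2.49 to 8.68 against 9.33 to 20.0 per M, limma adjusted p = 0.0327) but not with all 10 libraries, where wild type 2 read 2.13 and knockout 1 read 2.18. Wt1 was at 0 in 6 libraries and Upk3b read 0.615 to 2.45 in wild type and 0.0711 to 1.18 in knockout. Ciliated genes had 0 of 5 and endothelial genes 0 of 2 called, and lymphocyte and neutrophil genes summed to at most 0.297 and 0.211 per M. The part of other cells in the values of C3, Hc and Cd59a was not tested.

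Patterns of other genes most like those of Cd59a and Cfi, the 2 most variable members whose mean reached 5 per M, were ranked by Pearson's r of log2 values over the same 10 libraries, among 10172 genes. For Cd59a the first 4 were Gsdmd (r = 0.933), Phka2 (0.914), Nnt (0.901) and Trmt1 (0.877). Their spans differ much, from 11.2 to 14.0 per M for Gsdmd and from 18.7 to 74.8 for Nnt, against 3.58 to 41.1 for Cd59a. For Cfi the first 5 were Lcp1 (r = 0.922), Pygl (0.913), Fam234b (0.891), Washc2 (0.883) and Slc5a1 (0.880). All points share library, run and sex, and differences between the genotypes were not removed before correlating. The values of r are a description.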

How the data were processed

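The authors deposited 1 table of normalized counts, a signal that is never negative and not whole, for 16154 Ensembl genes in 10 libraries; column totals were 6.94 to 7.43 M. Per the submitters' processing notes the tools included edgeR 3.14.0 and bcl2fastq 2.17, with build mm10. No source used here gives the aligner, annotation, strand setting or exact normalization. Low values formed broad clusters, so whole reads were not recovered. Gene-specific scaling by the authors could shift levels between genes.

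Each value was scaled by 1 constant, 7.14, the average of the column totals in M. Symbols were matched for 16026 IDs; coordinates and exon lengths are from GENCODE M21. The 12946 genes that reached 1 per M in 5 or more libraries were tested with limma-trend (limma 3.58.1, R 4.3.3) on log2(value + 0.5), two-sided, Benjamini-Hochberg adjustment, threshold 0.05. Fold changes on this scale understate changes of low genes. Figures were drawn with matplotlib 3.10.9 under Python 3.11.15.

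Groups follow the labels. Each title has its own mouse number, but no label states separate sorts, so p-values measure the spread between these libraries. The 8-library fits leave out wild type 2 and knockout 1. Members and lists were chosen with earlier results of these data known. Named genes are the 8 members, Rbck1, near copies, other complement genes that passed a fit, otherwise up to 2 of each role with the highest mean, and the 5 most alike genes of the 2 most variable members, of which 1 is not reported here. A self-test on simulated counts drew genes independently, without label errors or sex differences, and its outcome is not reported here. Alternatives tried were a pseudocount of 0.1 or 2, testing without a filter or with one at 5 per M, median-ratio and quantile scaling, the replicate number as a block, run and sex as covariates, each run alone and leaving out each library.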

Additional observations from a re-analysis of the deposited data

Results flagged for a closer look

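In 23 genes and 2 groups of 5 libraries, the highest or lowest library was compared with the rest by the ratio of its gap to the group's range, against Dixon's 95% critical value for 5 samples. The same libraries enter every gene and the genes were chosen with earlier results known, so the count is no test against chance. For independent groups chance sets apart about 1 in 20, and here 7 of 46 were set apart. In the wild type group 5 of them were the library labelled wild type 2, which was lowest for Rbck1 at 29.7 per M (the others 56.1 to 57.8) and highest for C3 at 1228 (551 to 647), Cd59a at 41.1 (3.58 to 8.86), C1ra at 8.25 (2.42 to 3.18) and Clu at 461 (164 to 195). In the knockout group, knockout 2 stood apart for Cfi at 10.1 per M (the others 4.07 to 5.63) and knockout 4 for Masp2 at 4.81 (2.52 to 2.99).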

How the results depend on the processing

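The count of called genes between the genotypes depended on the libraries and the model. From 0 with 10 libraries it became 1 with run as a covariate, 41 in the second run alone, 52 in the 8 libraries and 261 with the replicate block, and 0 to 4 when single libraries were left out (4 without knockout 1). From 52 with 8 libraries it became 4 without a filter, 27 with sex as a covariate and 397 with the replicate block, and 19 to 100 when single libraries were left out (wild type 4 gave 26, wild type 5 gave 19, wild type 6 gave 100, knockout 3 gave 32 and knockout 4 gave 84). Between the runs the count of 81 became 23 without a filter, 51 with a filter of 5 per M, 44 with sex as a covariate and 28 in 8 libraries. It was 18 to 139 when single libraries were left out (wild type 2 gave 18, wild type 3 gave 44, wild type 5 gave 23, wild type 6 gave 28, knockout 1 gave 139 and knockout 4 gave 43). Of the other complement genes, 0 were called between the genotypes in 8 libraries in every alternative except without knockout 4 (range 0 to 2), and the 2 called between the runs became 0 with a filter of 5 per M, which drops both, and 2 to 3 when single libraries were left out. The causes of these shifts were not tested. Same-numbered libraries had correlations of deviations of 0.31, 0.03, 0.10 and 0.08 for numbers 2 to 5, so the replicate numbers were not taken as pairs; numbers 2 and 4 alone correlated best with their own number.

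In the 8 libraries C3 (0.49 to 0.84), Hc (0.26 to 0.38) and Cd59a (1.53 to 2.41) kept a positive log2 fold change in all 18 alternatives, and Cd55 (-0.10 to -0.04) a negative one. Cfi ranged from 0.16 (replicate block) to 0.92 (without wild type 3). No wild type female is among the 8, so the fit with sex there compares knockout 4 and 5 with wild type 3 to 6. With 10 libraries Cd59a ranged from -0.49 (first run alone) to 2.41 (second run alone), and C4b from -1.17 to 0.68 in the same runs. Depth limits Cfb, Serping1 and C4b most.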
